A study of Mus musculus with 6 samples.

Results

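The genes described are the mouse caspases Casp1, Casp2, Casp6, Casp8 and Casp9, the apoptosome gene Apaf1, and the inhibitor of apoptosis (IAP) genes Birc2 and Xiap. They were chosen by symbol, and these 8 of 18033 gene symbols (after names were updated by accession) had 17 of 25697 rows in the authors' deposited comparison of 3MC with DMSO. The 3 rows of Xiap carried its older symbol Birc4 and were recognised by their accession. Ovaries came from Swiss mice on postnatal day 3 to 4 and were kept in organ culture for 96 h. Medium for 3 samples held 3-methylcholanthrene (3MC) at 5 µM. This polycyclic hydrocarbon is a ligand of the aryl hydrocarbon receptor, and its concentration was one picked, per the labels, to be overtly toxic. Medium for the other 3 held the vehicle alone, 0.01% dimethyl sulfoxide (DMSO). Both groups had the same serum-containing medium with basic fibroblast growth factor, leukemia inhibitory factor and stem cell factor. Each sample was whole-ovary RNA on 1 Illumina Mouse Ref-8 v2 BeadChip, so that fewer cells of a type and less RNA per cell cannot be told apart.

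Caspases are cysteine proteases that are made as inactive precursors and cut their targets after aspartate. Initiator caspases are switched on in large complexes: APAF1 binds cytochrome c released from mitochondria and assembles the apoptosome, which activates caspase-9, while death receptors recruit caspase-8. The initiators cleave executioner caspases, and IAP proteins such as XIAP restrain the process by binding caspases or by attaching ubiquitin. Activity is set mostly by assembly of the proteins in such complexes and by their cleavage, which an mRNA array does not measure. In the neonatal ovary, apoptosis is a main route by which oocytes are lost, and polycyclic hydrocarbons are known to deplete primordial follicles.

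The sequences just upstream of the 3 genes for which array values could be recovered are shown first. They are from RefSeq (GRCm38.p6), 5′ to 3′ on the strand of the gene. Each line ends at the base before the annotated gene. Capitals mark GCGTG on either strand, the core of the element to which the aryl hydrocarbon receptor binds.
Apaf1, chr10:91082744-91082993, minus strand: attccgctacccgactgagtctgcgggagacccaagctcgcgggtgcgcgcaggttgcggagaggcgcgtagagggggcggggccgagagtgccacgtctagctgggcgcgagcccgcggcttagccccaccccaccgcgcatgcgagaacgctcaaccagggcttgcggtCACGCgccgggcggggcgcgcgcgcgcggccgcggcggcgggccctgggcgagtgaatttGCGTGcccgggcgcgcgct
Casp2, chr6:42264735-42264901, plus strand: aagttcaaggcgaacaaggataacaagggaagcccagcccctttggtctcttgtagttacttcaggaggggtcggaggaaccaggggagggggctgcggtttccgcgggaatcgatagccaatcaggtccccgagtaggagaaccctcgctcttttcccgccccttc
Casp6, chr3:129901165-129901414, plus strand: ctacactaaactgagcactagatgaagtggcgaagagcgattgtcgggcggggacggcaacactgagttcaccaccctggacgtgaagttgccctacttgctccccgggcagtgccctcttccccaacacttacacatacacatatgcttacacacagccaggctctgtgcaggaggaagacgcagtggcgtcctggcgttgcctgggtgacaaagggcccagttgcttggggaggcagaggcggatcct

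Apaf1 had 2 matches to GCGTG in its 250 bases, and the 250 bases of Casp6 and the 167 bases printed for Casp2 had 0. In the full window of 250 bases before the RefSeq start of Casp2, 1 match was found beyond the printed part. All 8 genes had at least 1 entry in the table of starts, 11 windows in all, and 5 of the 11 held a match, in Apaf1, Birc2, Casp2 and Casp9. Of all 32851 windows of 250 bases in the table, 28.2% held the motif. The p53 half-site, a degenerate motif of 10 letters, was matched exactly in 0 of the 11 windows and in 7.13% of all windows. These matches describe letters in these windows and do not bear on binding.

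Across the 17 rows, changes were small. In the authors' deposited table the ratio of 3MC to DMSO ran from 0.736 (Casp6) to 1.40 (Apaf1), and 0 of the 17 rows reached 1.5-fold either way, against 2.10% of all rows. None of them was among the 537 rows of the authors' own selection. Apaf1, Casp9, Xiap and Birc2 lay above a ratio of 1 in every row, and Casp1, Casp2, Casp6 and Casp8 lay below 1 in every row, so that 11 of the 17 ratios were above 1 (50.4% of all rows) in the authors' deposited table. Each of the 6 genes with more than 1 row had all its rows on the same side of 1, as had 48.5% of the 4997 symbols with several rows. The authors' unadjusted p was under 0.05 for 6 of the 17 rows (35.3%), against 20.2% of all rows. How that p was modelled is unknown, and these p-values are printed as the authors' values only. The median absolute log2 ratio of the 17 rows was 0.12, and over all rows it was 0.06.

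**Figure D1:**
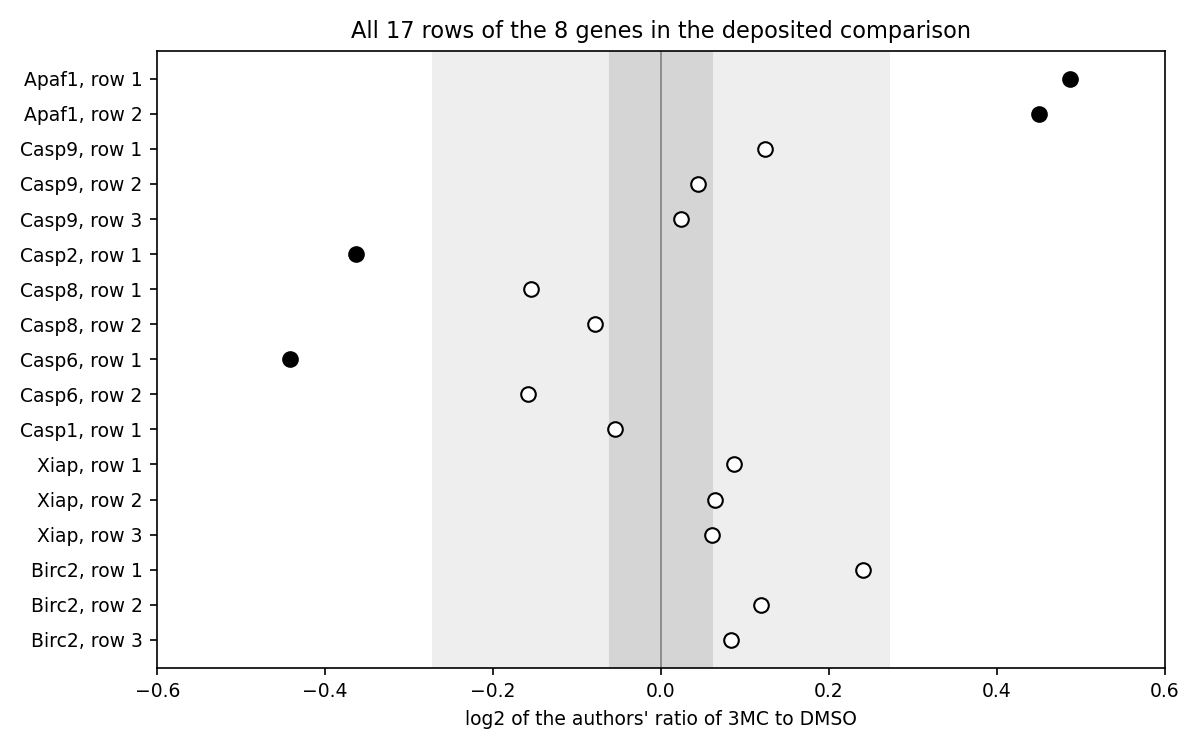
Log2 of the authors' ratio of 3MC to DMSO (x axis) for each of the 17 rows of the 8 genes (y axis), with filled points for rows joined to a probe and open points for the others. The dark and light bands hold 50% and 90% of all rows, and only both Apaf1 rows, the Casp2 row and the first Casp6 row lie outside the light band.

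Values on single arrays could be recovered for 4 of the 17 rows, from Apaf1 (both rows), Casp2 and Casp6. A row was joined to a probe where its ratio matched the difference of group means of that probe alone. That condition favours large differences, and among kept probes joined to any row 86.1% passed limma's moderated test at an adjusted p of 0.05, against 32.2% of all 12848 kept probes. All 4 member probes passed, 2 higher and 2 lower in 3MC (43.0% and 43.1% of joined kept probes, 15.8% and 16.4% of all kept probes), which is therefore no more than most joined probes did. At each of them the groups did not overlap in normalized signal, as at 88.9% of joined kept probes and 42.4% of all kept probes. All levels below are log2 of normalized signal, and levels of different probes are not comparable. Whether replicates came from separate cultures or animals is not stated in the labels, and the spread behind each p-value may be technical. Most of that spread was borrowed from all probes (prior degrees of freedom of 30.6, beside 4 residual ones).

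Apaf1, which encodes the scaffold of the apoptosome, rose with 3MC at both of its probes (chromosome 10). The brighter probe, ILMN_3143577, had log2 levels of 8.77, 8.89 and 8.85 with DMSO and of 9.47, 9.29 and 9.25 with 3MC, each in the order of replicates 1 to 3. Every 3MC array was above every DMSO array after normalization, with a gap of 0.36 between the nearest. Scanner signals overlapped, at 515, 520.5 and 496.8 in DMSO and 1005.8, 542.7 and 472 in 3MC. The mean log2 level went from 8.83 ± 0.060 to 9.33 ± 0.12 (SD, n = 3), a 1.42-fold rise. The log2 fold change was 0.50 ± 0.087 (SE, limma adjusted p = 2.47e-05, 95% interval 0.32 to 0.68). The dimmer probe, ILMN_1228561, had levels of 6.73, 7.02 and 6.81 in DMSO and of 7.45, 7.32 and 7.50 in 3MC. These levels did not overlap between groups either, and the probe rose 1.48-fold (log2 0.57 ± 0.090, SE, n = 3 per group, limma adjusted p = 5.63e-06). Its scanner signal was 139.9 to 162.6 in DMSO and 162.0 to 266.3 in 3MC, beside array medians of 107.8 to 109.1 and 98.1 to 124.5.

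Both Apaf1 calls were lost when arrays were centred on their medians and not quantile normalized. They then stood at log2 0.37 (limma adjusted p = 0.229) for the brighter probe and 0.51 (adjusted p = 0.0518) for the dimmer one. Without 3MC replicate 1, the brightest array before normalization, the same centring gave 0.14 (adjusted p = 0.312) and 0.37 (adjusted p = 0.00688). With quantile normalization and without that array, both probes passed, at 0.44 and 0.54.

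Casp9, the initiator caspase that the apoptosome activates, had 3 rows with ratios of 1.090, 1.031 and 1.017 in the authors' deposited table (p = 0.201, 0.394 and 0.640). No row of Casp9 could be joined to a probe. For the first row a single probe lay within the tolerance, but other rows shared that probe. It had a mean scanner signal of 901.4 and a log2 fold change of 0.13 (limma adjusted p = 0.292). The other rows of Casp9 had 11 and 15 possible probes, and 0 of those that were kept passed.

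Casp2, an initiator caspase that the adapter protein PIDD1 activates in a complex of its own and that acts in oocyte death in mice, fell at its only row (probe ILMN_2637266, chromosome 6). Its log2 levels were 11.01, 11.11 and 11.15 with DMSO, and 10.72, 10.84 and 10.64 with 3MC, in the same order. The groups did not overlap, with the highest 3MC array 0.17 below the lowest DMSO array. The mean went from 11.09 ± 0.070 to 10.73 ± 0.10 (SD, n = 3), and the log2 level fell by 0.36 ± 0.087 (SE), 1.28-fold lower (limma adjusted p = 0.00166, 95% interval -0.53 to -0.18). This was the brightest of the 4 joined probes, above 96.2% of all probes in mean signal. With median centring the change was -0.49 (limma adjusted p = 0.0656), so the call was lost although the value was larger.

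Casp8, the initiator caspase of death receptors, had ratios of 0.898 and 0.947 in the authors' deposited table (p = 0.0426 and 0.285). The rows carry accessions of different transcripts of the gene, and neither could be joined. For the first row 4 probes were possible, all kept, and 0 passed (limma adjusted p = 0.13 to 0.212). For the other row 7 probes were possible, and 0 of the 3 kept ones passed.

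Casp6, an executioner caspase that cleaves nuclear lamin A, fell at the row that could be joined (probe ILMN_2923864, chromosome 3). Its log2 levels were 9.17, 9.23 and 8.97 with DMSO, against 8.70, 8.72 and 8.54 with 3MC. All 3MC arrays were below all DMSO arrays after normalization, by at least 0.24. Scanner signals overlapped, at 535.9 to 680.2 in DMSO and 305.1 to 607.2 in 3MC. The mean of the log2 levels went from 9.12 ± 0.14 to 8.66 ± 0.10 (SD, n = 3), and the log2 level fell by 0.47 ± 0.090 (SE), 1.38-fold lower (limma adjusted p = 0.000109, 95% interval -0.65 to -0.28). It was the only one of the 4 joined probes to pass with median centring (-0.60, limma adjusted p = 0.0405). The second Casp6 row had a ratio of 0.896 in the authors' deposited table (p = 0.137), against 0.736 for the joined row (p = 0.000347). Of 2 possible probes for that second row, 1 passed.

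Casp1, which cleaves the precursors of interleukin-1β and interleukin-18 in inflammasomes, had 1 row, with a ratio of 0.963 in the authors' deposited table (p = 0.417). It had 8 possible probes, of which 4 were kept and 0 passed. Casp1 is made by macrophages among other cells, and markers of leukocytes fell in the same comparison. Over the 22 such markers on the array, the median log2 ratio in the authors' deposited table was -0.86. Of them 15 had a joined probe, and all 15 fell. Among all joined kept probes 86.1% passed, 43.0% higher and 43.1% lower, so passing alone is no more than most joined probes did. The sum of the normalized signals of these 15 markers on an array was 13630 to 14140 in DMSO and 4427 to 4818 in 3MC. Lyz2, the brightest of them with a mean scanner signal of 5024, weighed most in this sum. The part of these cells in the values of the caspase genes was not tested. Of the other defining markers, 8 of 15 oocyte genes on the array were joined (4 rose, 4 fell). Their sums were 22290 to 23570 in DMSO and 23080 to 25220 in 3MC. Gdf9, the brightest of the 8 with a mean scanner signal of 7613, weighed most in the oocyte sum. Single joined oocyte genes ran from log2 -0.50 (Figla) to 1.01 (Oosp1), so the sum does not show that oocyte content was unchanged. Of 13 granulosa cell genes on the array 2 were joined (1 rose, 1 fell), with sums of 6197 to 6421 and 5728 to 6035. The dimmest joined marker was the leukocyte gene Cd53, whose scanner signals with 3MC were 130.9, 101.6 and 97.8, beside array medians of 124.5, 98.1 and 99.4. Its call was lost with median centring (-0.36, limma adjusted p = 0.157).

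Xiap, which binds and inhibits some caspases, caspase-9 among them, had the least spread among its rows. Its ratios were 1.062, 1.046 and 1.043 in the authors' deposited table (p = 0.286, 0.275 and 0.135), with 5, 13 and 6 possible probes, of which 0 of the kept ones passed. Birc2, which encodes the ubiquitin ligase cIAP1 that acts on the kinase RIPK1 below the TNF receptor, had ratios of 1.181, 1.086 and 1.060 in the authors' deposited table (p = 0.0269, 0.0841 and 0.392). Its first row had 3 possible probes, and all 3 passed upward (log2 fold change 0.26 to 0.32, limma adjusted p = 0.00402 to 0.0208). The row's ratio fixes these probes' differences in the deposited log2 values to be alike, so the 3 calls are not separate support. The other Birc2 rows had 2 and 8 possible probes, and 0 of the kept ones passed. Birc2 and Birc3 share older symbols in the authors' deposited table and lie next to each other in the genome, and Birc3, looked up after its value was seen, had a ratio of 0.931 (p = 0.0177).

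**Figure D2:**
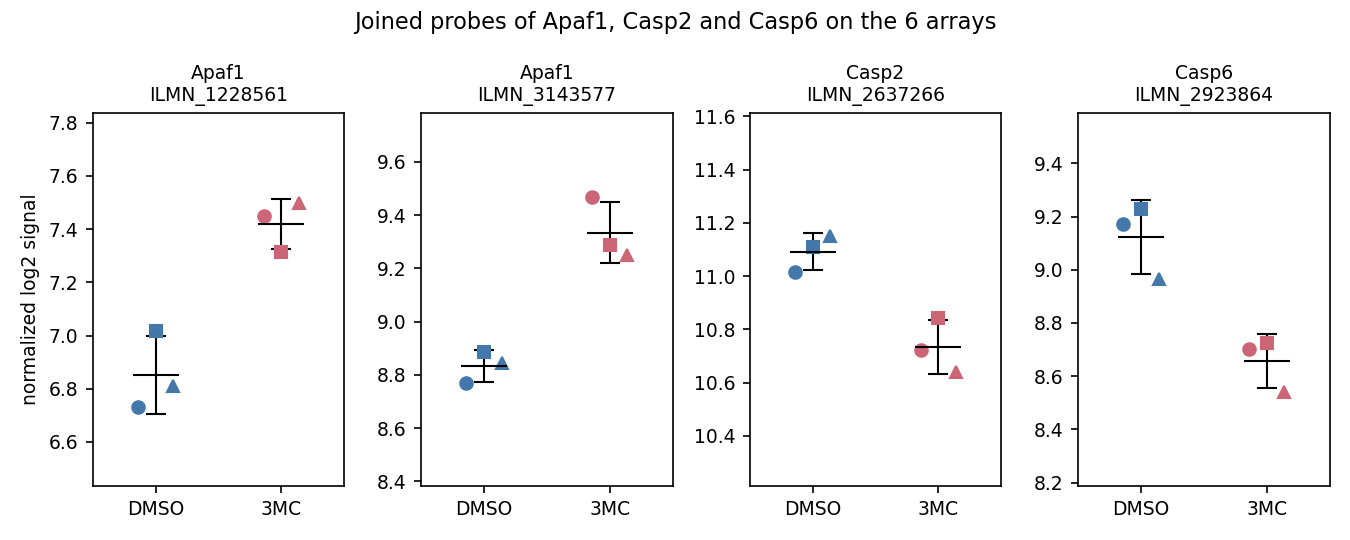
Normalized log2 signal (y axis) of the 4 joined probes on each array, in DMSO (blue) and 3MC (red). Circles, squares and triangles are replicates 1, 2 and 3, horizontal bars are means and whiskers are SD (n = 3), and each panel spans the same log2 range. Both Apaf1 probes are higher and the Casp2 and Casp6 probes lower on all 3MC arrays.

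The log2 difference between 2 probes on 1 array does not change with a single scaling factor per array, as in median centring, though it can change with quantile or loess normalization. It is given here from background-corrected log2 signals before normalization between arrays, as a description with no test, since the pairs were formed after each probe's direction was seen. The log2 difference between the brighter Apaf1 probe and the Casp6 probe went from -0.30 ± 0.16 (SD, n = 3) in DMSO to 0.67 ± 0.10 in 3MC, a shift of 0.97. Relative to the DMSO mean the 3MC arrays lay at 1.06, 0.86 and 0.98, and the DMSO arrays lay between -0.12 and 0.18. Between the same Apaf1 probe and Casp2 the shift was 0.86, with 3MC arrays at 1.04, 0.68 and 0.85. With the dimmer Apaf1 probe, the shifts were 1.10 against Casp6 and 1.00 against Casp2. Casp2 and Casp6 shifted against each other by 0.11, and the Apaf1 probes by 0.14, with overlapping groups in both pairs.

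**Figure D3:**
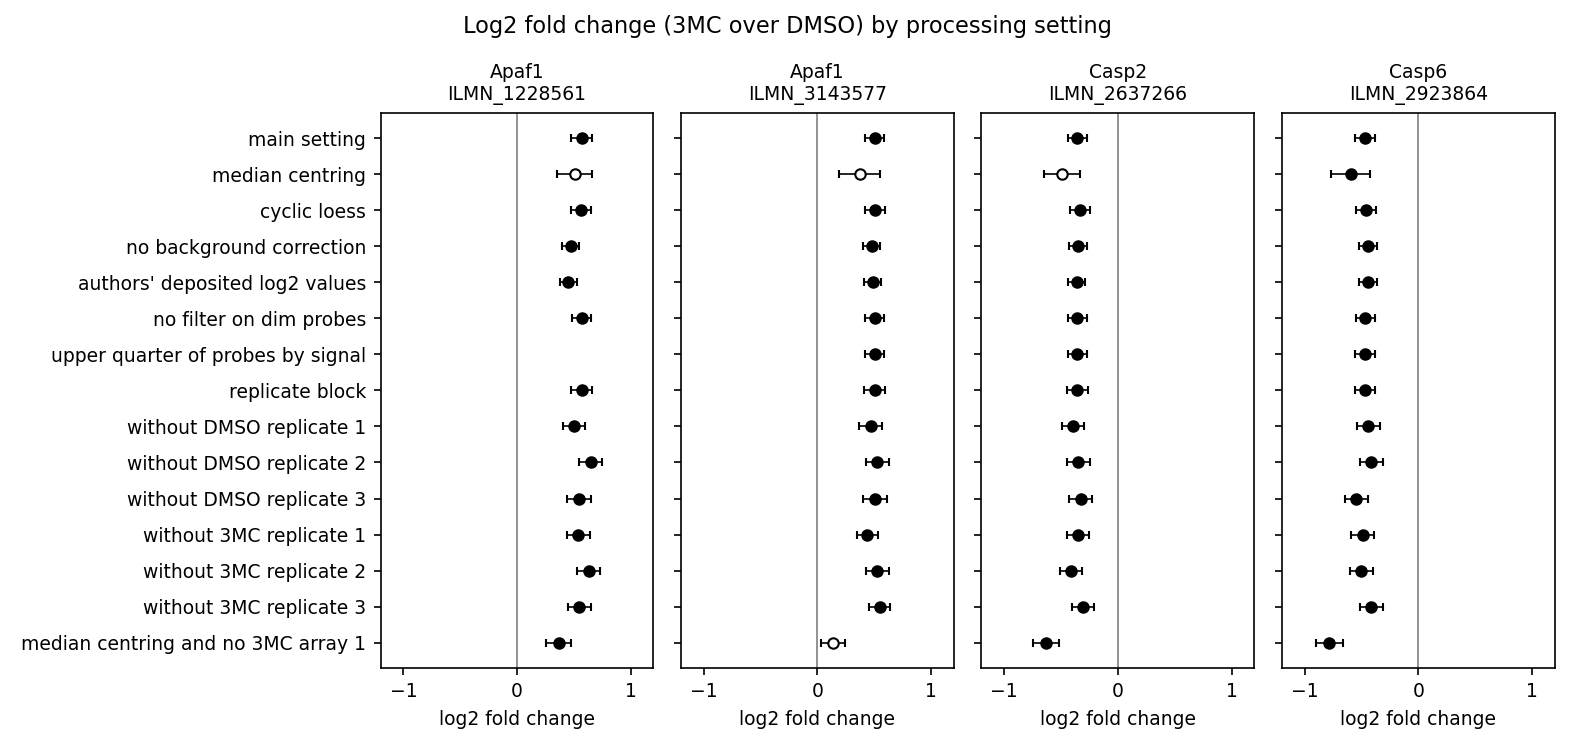
Log2 fold change of 3MC over DMSO (x axis, bars are limma's SE) of the 4 joined probes under each processing setting (y axis), filled where the adjusted p was under 0.05. Signs are the same in all settings, and 3 of the 4 points are open with median centring.

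Other genes of caspase control were read from 6 lists of 57 genes, of which 49 were on the array with 76 rows. Of 10 genes with a joined kept probe, 6 rose, 2 fell and 2 did not pass at their brightest probe. Among all joined kept probes 86.1% passed, 43.0% higher and 43.1% lower, so nothing is read from this count. Of the 15 joined probes of these genes 13 passed (11 higher, 2 lower), but only 5 (4 higher, 1 lower) with median centring, and 9 (6 higher, 3 lower) with that centring and without 3MC replicate 1. Over all 49 genes the median log2 ratio in the authors' deposited table was 0.0042, against 0.00043 over all symbols. Genes of these lists that are named below without a joined probe were picked after their values were seen. Pidd1, which encodes the p53-induced adapter that assembles with caspase-2, had the largest change of these genes. Its levels were 6.42, 6.51 and 6.37 in DMSO and 7.44, 7.57 and 7.54 in 3MC, with no overlap. It rose 2.12-fold (log2 1.08 ± 0.086, SE, n = 3 per group, limma adjusted p = 1.43e-12). It was the only listed gene with 1.5-fold or more in the authors' deposited table, at a ratio of 1.778. Its scanner signal was 112.3 to 121.4 in DMSO and 172.3 to 264.3 in 3MC, beside array medians of 107.8 to 109.1 and 98.1 to 124.5. Pidd1 was 1 of 13 adapter genes of death receptors and related complexes on the array, and the only one that could be joined.

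Of 3 further caspase genes, 1 was joined and rose. Casp4, an inflammatory caspase that senses bacterial lipopolysaccharide in the cytosol, rose 1.55-fold (log2 0.63 ± 0.087), from 7.13 ± 0.064 to 7.76 ± 0.097 (SD, n = 3). Casp12 and Casp14 were not joined and had ratios of 1.066 and 1.091 in the authors' deposited table. Of 6 other IAP genes on the array 1 was joined: Birc5, which encodes survivin, a protein of mitosis as well as an IAP, fell by 0.48 ± 0.087 on the log2 scale. The large IAP gene Birc6 and the Naip genes had ratios of 0.927 to 0.998 in the authors' deposited table.

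Among 9 inflammasome genes on the array, 2 were joined and both rose. All 3 joined probes of Gsdmd, which encodes the pore-forming target of caspases 1 and 4 (caspase-11 in mice), rose, by log2 fold changes of 0.40, 0.54 and 0.69. Aim2, a sensor of cytosolic DNA, rose 1.34-fold (log2 0.42 ± 0.086). Il1b, whose product caspase-1 matures, was not joined and had a ratio of 0.729 in the authors' deposited table (p = 2.16553e-06), and Il18 had a ratio of 1.108 (p = 0.128). Leukocytes are known to express Casp4, Gsdmd, Aim2 and Il1b, and the summed signal of their markers fell as given above, and its part in these values was not tested. With median centring, Aim2 (0.35) and 2 of the 3 Gsdmd probes (0.42 and 0.27) lost their calls.

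Of 11 genes of caspase substrates on the array 4 were joined. Lmna, which encodes the lamin A that caspase-6 cleaves, rose at all 3 joined probes (log2 0.62, 0.26 and 0.28), and none of the 3 passed with median centring. Each of the weaker Lmna probes also lost its call in 3 of the 6 fits that leave out an array, at 0.21 to 0.25 and 0.22 to 0.24. Gsn, the actin-severing gelsolin, rose 1.45-fold (log2 0.53 ± 0.090). Its scanner signal in DMSO was 106.2 to 124, beside array medians of 107.8 to 109.1, so its level over background there is unknown. Parp1, a DNA damage sensor that executioner caspases cleave, fell by 0.23 ± 0.088 with limma adjusted p = 0.0395, and this call was lost after cyclic loess (-0.21), after median centring (-0.36, adjusted p = 0.246) and in 5 of the 6 fits that leave out an array (-0.24 to -0.17). Rock1, the kinase behind membrane blebbing, stood at log2 0.16 (limma adjusted p = 0.16). Aifm1 encodes a mitochondrial flavoprotein that moves to the nucleus in cell death. It was the only joined gene of 7 on the array in the list of mitochondrial release and IAP antagonist genes. Its probes disagreed: the dimmer one rose (log2 0.46, limma adjusted p = 0.000139, lost with median centring at 0.37, adjusted p = 0.152) and the brighter one stood at log2 -0.19 (adjusted p = 0.0891). Cycs and Diablo, which encode the released cytochrome c and an IAP antagonist, were not joined and had ratios of 1.014 to 1.058 and 0.935 in the authors' deposited table.

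**Figure D4:**
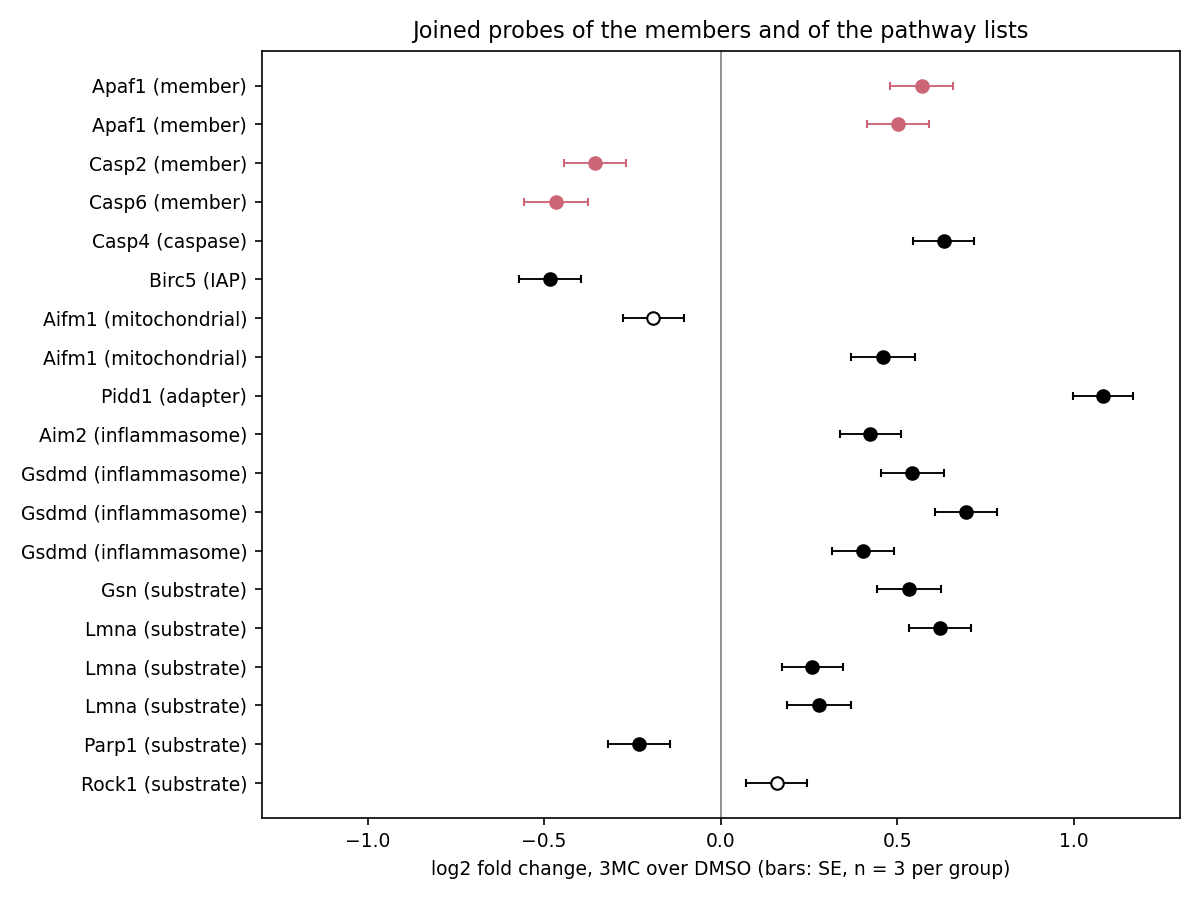
Log2 fold change of 3MC over DMSO (x axis, bars are SE, n = 3 per group) at each joined kept probe of the 8 genes (red) and of the pathway lists (black), filled where the limma adjusted p was under 0.05. Of the 15 list probes 11 rose, 2 fell and 2 did not pass, while with median centring 5 passed (4 higher, 1 lower).

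For each joined probe, the genes of most similar pattern were the 3 with the smallest Euclidean distance between profiles over the 6 arrays, each profile centred on its own mean, among 2332 joined genes. For the brighter Apaf1 probe these were Col4a1, Gna14 and Gsdmd (distances of 0.0758, 0.0813 and 0.0903). For the dimmer Apaf1 probe they were Adamts1, Olfm1 and Irf1 (0.0642, 0.0973 and 0.119). The Casp6 probe was nearest to Piwil2, Impa2 and H2az1 (0.0829, 0.102 and 0.128), and the Casp2 probe to Ppic, Pex19 and D11Wsu47e (0.0804, 0.0837 and 0.0896). Such distances rest mostly on the group difference, which the genes share in size.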

How the data were processed

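The authors deposited scanner intensity for 25697 probes on 6 arrays, with no detection p-values or control probes, and a table of log2 values of the same arrays. Lumi is named in the submitters' processing notes, and how the log2 values were normalized is unknown. The authors also deposited a linear ratio of 3MC to DMSO and an unadjusted p-value per row, per the file headers. Rows and probes share no identifier. A row was joined to a probe where the log2 ratio matched the difference of group means within 5e-05 and neither had another match, which joined 2656 of 25697 rows. Symbols were updated by accession through RefSeq names (23735 rows matched).

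Background was corrected by normexp with an offset of 50, and log2 intensities were quantile normalized in limma 3.58.1 in R 4.3.3. The 12848 probes with a mean log2 signal above the median were tested with lmFit and eBayes (two-sided, Benjamini-Hochberg over these probes, threshold 0.05). Of them 4137 passed, 2026 higher and 2111 lower in 3MC. The number of arrays limits the precision. Median scanner signals were 98.1 to 124.5, normalized arrays correlated across probes at r = 0.9945 to 0.9959 within a group and 0.978 to 0.979 between groups, and no 2 arrays were identical. The scripts were tested on simulated data.

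Members, lists and the rule for named genes (every row of a member, and every list gene with a joined kept probe or a ratio of 1.5-fold) were chosen with earlier results of these data known. Some genes of the pathway are not reported here. Alternatives were median centring, cyclic loess, no background correction, the deposited log2 values, other filters, another tolerance, a replicate block and leaving out each array.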

Additional observations from a re-analysis of the deposited data

How the results depend on the processing

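Median centring changed most: 1107 probes passed (343 higher, 764 lower), and 1 of the 4 joined member probes (Casp6). Of the passing probes 31.0% were then higher in 3MC, against 49.0% with quantile normalization. Median centring without 3MC replicate 1, chosen after seeing the data, gave 5675 passing probes (582 higher, 5093 lower, 10.3% higher), moved the median log2 fold change of the tested probes to -0.197, and left 3 member probes passing. There Lmna reversed at both weaker probes (-0.0087 and -0.056), as did Rock1 (-0.13) and the oocyte gene Gdf9 (-0.057). The cause was not tested. A stricter signal filter that kept 6424 probes gave 2515 passing probes. Leaving out 1 array gave 3354 to 3601 passing probes, with 4 member probes passing each time. All 4 also passed with cyclic loess, without background correction, with the deposited log2 values and without the filter. At a tolerance of 0.0001 the Casp6 row was not joined, and the other 3 member probes passed. With the replicate number as a block 3986 probes passed, 4 member probes among them. Deviations of same-numbered arrays correlated at -0.0785, -0.0962 and 0.0831. Such values cannot decide whether same-numbered samples shared a culture or animals, which the labels do not state. The 13 rows without a joined probe had ratios from 0.896 to 1.181, and which probe each of them reads was not settled. For some of these rows the possible probes reached below the array medians, so their signal over background is unknown. The unjoined rows do not show that Casp1, Casp8, Casp9, Xiap or Birc2 was unchanged.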

Other observations

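Genes in this paragraph were picked after their values were seen. Rows of 1 gene differed in size in the authors' deposited table. The 3 rows of Casp4 had ratios of 1.438, 1.172 and 1.067, and the 3 rows of Birc5 had 0.713, 0.740 and 0.826. The 5 rows of Lmna ran from 1.171 to 1.492. Mlkl, which encodes the executor of necroptosis, had rows on both sides of 1 (1.268 and 0.923) and neither could be joined. The Bid rows had ratios of 0.985 and 0.948, and Cflar, which encodes an inhibitor of caspase-8 activation, had 1.040 and 1.013. The probe sequences that would show which transcripts each row reads were not used here.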
